A study of Mus musculus with 187 samples.

Results

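Mitochondrial ribosomal protein genes were chosen by name: every protein-coding gene whose symbol starts with Mrpl or Mrps in the deposited table. The rule gave 78 of 36558 genes, 49 with Mrpl and 29 with Mrps symbols, after 5 processed pseudogenes with such symbols had been left out. All 78 passed the filter on low counts, which kept 15942 genes. Heart RNA had been sequenced from the Hybrid Mouse Diversity Panel, a set of inbred and recombinant inbred mouse strains used for genetic mapping, in a study that asked how the sexes differ in diastolic dysfunction. The table held 98 libraries from males and 89 from females, of 45 BXD strains (from C57BL/6J and DBA/2J), 20 AXB and BXA strains (from A/J and C57BL/6J), 6 CXB strains (from BALB/cJ and C57BL/6J), 6 BXH strains (from C57BL/6J and C3H/HeJ) and 29 other inbred strains. The BXD strains include BXD24/TyJ-Cep290<rd16>/J, a line whose name gives the rd16 allele of Cep290, with a male library only. All mice were 16 weeks old, after 8 weeks on chow and another 8 on a diet high in fat and sucrose (HF/HS), so no chow-fed animal is in the comparison. Both sexes were present for 78 strains, nearly always with 1 library of each sex, and this male and female library are the replicates of a strain. AXB19/PgnJ, AXB19a/PgnJ and AXB19b/PgnJ share a line number and were counted as separate strains throughout. The extraction notes give 1 mouse per strain, read here as 1 per strain and sex, and p-values measure the spread between these libraries.

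The mitochondrial ribosome is the machine that translates the messenger RNAs encoded in mitochondrial DNA (mtDNA), all of which code for subunits of the respiratory chain and ATP synthase. Its proteins are encoded in the nucleus, made in the cytosol and imported, and they assemble with ribosomal RNAs from mtDNA into a large subunit, which forms peptide bonds, and a small subunit, which reads the message. Heart muscle is rich in mitochondria and depends on this translation. Among the 78 genes, 51 encode large subunit proteins, including Mrps18a and Mrps30 despite their names, and 26 encode small subunit proteins. Mrps36 was kept by the naming rule, although its product is now known as a component of the 2-oxoglutarate dehydrogenase complex.

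Promoters of 7 genes that had a window are shown because each is described at length for its differences between strains, between the sexes or with the mtDNA-encoded transcripts. Each is the 250 bases before a start that RefSeq annotates on GRCm38.p6, 5′ to 3′ on the gene's strand, with letters of searched motifs in capitals. The reference genome is that of C57BL/6J, and bases that differ in other strains were not analysed here. Mrps5 (chr2:127587176-127587425), Mrpl55 (chr11:59202236-59202485), Mrpl27 (chr11:94653541-94653790), Mrpl3 (chr9:105053018-105053267), Mrps27 (chr13:99344536-99344785), Mrpl30 (chr1:37890227-37890476) and Mrpl12 (chr11:120484387-120484636) all lie on the plus strand. Gene positions given below are those of GENCODE, whose start lies inside the window for Mrps5, Mrpl27, Mrpl3 and Mrpl12.
Mrps5: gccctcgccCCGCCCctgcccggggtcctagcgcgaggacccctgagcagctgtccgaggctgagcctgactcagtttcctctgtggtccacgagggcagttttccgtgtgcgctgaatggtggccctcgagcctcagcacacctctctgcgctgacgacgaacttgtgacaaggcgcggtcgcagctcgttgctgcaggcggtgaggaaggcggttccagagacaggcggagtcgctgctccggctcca
Mrpl55: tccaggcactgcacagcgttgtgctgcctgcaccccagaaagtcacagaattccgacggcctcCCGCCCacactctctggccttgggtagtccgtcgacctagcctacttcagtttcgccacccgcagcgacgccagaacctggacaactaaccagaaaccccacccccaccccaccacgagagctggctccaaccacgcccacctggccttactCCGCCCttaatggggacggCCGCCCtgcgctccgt
Mrpl27: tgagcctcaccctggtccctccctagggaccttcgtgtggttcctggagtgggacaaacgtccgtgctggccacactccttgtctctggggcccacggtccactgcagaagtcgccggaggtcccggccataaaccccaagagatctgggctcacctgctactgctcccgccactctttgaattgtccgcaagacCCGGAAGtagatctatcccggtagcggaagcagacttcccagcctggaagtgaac
Mrpl3: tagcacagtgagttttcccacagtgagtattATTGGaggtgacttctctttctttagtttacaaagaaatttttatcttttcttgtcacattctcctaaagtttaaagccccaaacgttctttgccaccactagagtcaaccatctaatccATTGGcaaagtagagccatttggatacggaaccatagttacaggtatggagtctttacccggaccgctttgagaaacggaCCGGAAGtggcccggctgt
Mrps27: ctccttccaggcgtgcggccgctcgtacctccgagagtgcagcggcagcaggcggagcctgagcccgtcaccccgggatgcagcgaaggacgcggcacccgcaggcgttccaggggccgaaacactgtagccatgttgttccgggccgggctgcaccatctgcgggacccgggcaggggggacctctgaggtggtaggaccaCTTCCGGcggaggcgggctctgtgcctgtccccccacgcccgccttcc
Mrpl30: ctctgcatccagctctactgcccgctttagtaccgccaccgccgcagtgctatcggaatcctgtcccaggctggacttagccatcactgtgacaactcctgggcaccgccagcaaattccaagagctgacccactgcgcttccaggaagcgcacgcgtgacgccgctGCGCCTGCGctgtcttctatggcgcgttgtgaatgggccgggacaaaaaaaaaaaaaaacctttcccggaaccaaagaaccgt
Mrpl12: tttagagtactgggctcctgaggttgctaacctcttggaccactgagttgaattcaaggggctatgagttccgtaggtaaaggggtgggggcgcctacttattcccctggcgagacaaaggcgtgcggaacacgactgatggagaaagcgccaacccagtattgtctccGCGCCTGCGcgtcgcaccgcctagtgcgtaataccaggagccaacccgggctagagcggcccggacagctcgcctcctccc
Capitals mark GGGCGG (the SP1 letters) in Mrps5 and Mrpl55, CCGGAAG (the ETS letters, read by GABP among others) in Mrpl27, Mrpl3 and Mrps27, CCAAT in Mrpl3, and GCGCNTGCG (the NRF1 letters) in Mrpl30 and Mrpl12, on either strand.

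Windows were found for 69 of the 78 genes (75 windows, since some genes have several starts). No window was given for Mrpl13, Mrpl15, Mrpl19, Mrpl38, Mrpl4, Mrpl54, Mrps28, Mrps34 and Mrps35. NRF1 and the ETS family member GABP are textbook regulators of nuclear genes for mitochondrial proteins. The NRF1 letters were in 20% of these windows, against 9.49% of the 14642 windows of tested genes, and the ETS letters were in 24% against 11.9%. YY1 letters (AAGATGGC) were in 5.33% against 1.81%. The other searched letters were at similar shares in both: GGGCGG in 49.3% against 53.8%, CCAAT in 37.3% against 34.6%, TATAAA in 6.67% against 7.55% and the cyclic AMP element TGACGTCA in 2.67% against 2.34%. Large subunit windows held the NRF1 letters in 24% and GGGCGG in 40%, and small subunit windows in 12.5% and 66.7%. Both strands were searched, letters of different motifs overlapped in 1 of the 75 windows, and these shares describe letters only.

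Library totals ran from 28988462 to 80442301 estimated counts with a median of 45383554. Genes encoded in mtDNA took 20.7% to 61.3% of the counts of a library, and the 78 genes together took 0.205% to 0.542%. All 7 heart muscle markers passed the filter and none of the 4 lung markers did. In 14 libraries, short transcripts read much higher than long ones relative to the panel. This was measured as the slope of a library's log2 deviation from the panel on log2 transcript length over 12549 genes, called the length trend below. The 14 libraries had slopes of -0.4193 to -0.188 log2 per doubling of length, against -0.1547 to 0.1385 in the others. They were both libraries of BXD19/TyJ, both male libraries of MA/MyJ, the female libraries of BXD6/TyJ, BXD51/RwwJ, BXD73/RwwJ, CXB4/ByJ and RIIIS/J, and the male libraries of BXD9/TyJ, BXD60/RwwJ, CXB6/ByJ, CXB7/ByJ and AXB6/PgnJ.

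Levels of the 78 genes moved with this trend. The mean log2 CPM of the genes in a library (CPM, a gene's count scaled to depth on TMM-scaled library sizes) was 5.26 to 5.86 in the 14 libraries and 4.57 to 5.28 in the others. Those 14 libraries held 13 of the 14 highest means. Across all libraries the mean had a correlation of -0.939 with the trend, and of -0.787 without the 14 libraries. Of the 78 genes, 66 had a correlation below -0.5 with it, against 16.1% of all tested genes. Fewer heart muscle cells and less of this RNA per cell cannot be told apart in bulk tissue. The mean of the genes had a correlation of 0.56 with the mean of the heart muscle markers, 0.0534 with blood, -0.163 with atrial and -0.19 with adipose markers. Results that rest on the 14 libraries are therefore given with and without them, or after the trend was removed from each gene.

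**Figure D1:**
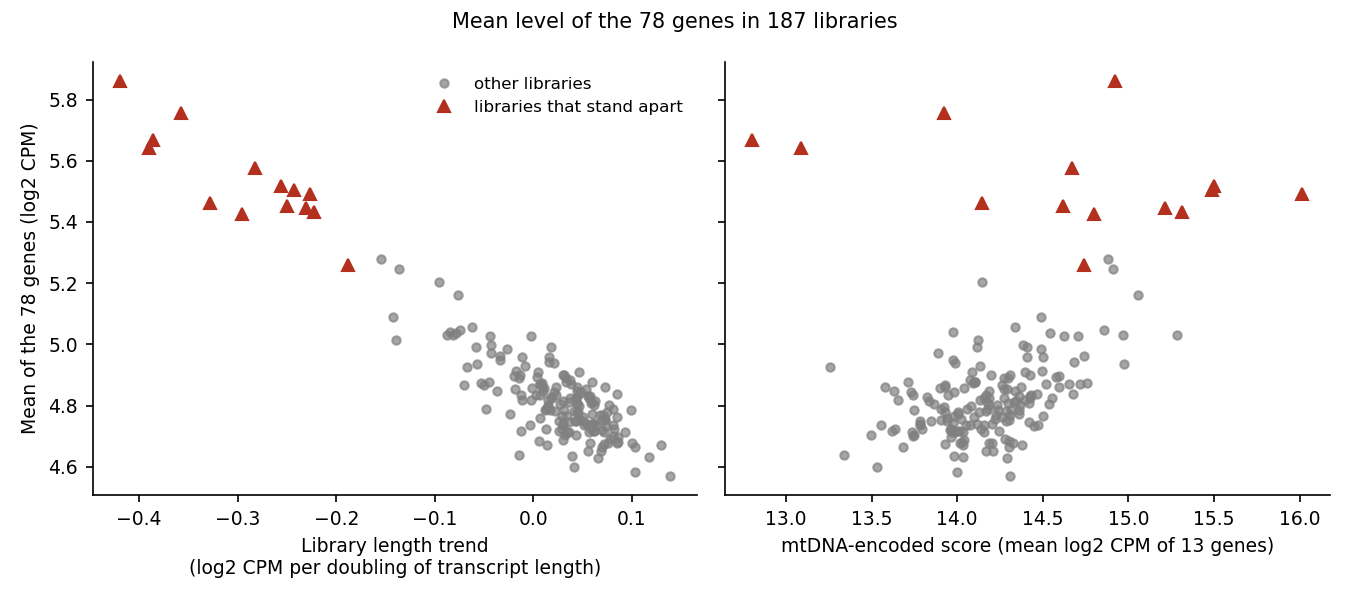
Mean log2 CPM of the 78 genes in each library against the library's length trend (left) and against the mean log2 CPM of the 13 mtDNA-encoded genes (right); triangles are the 14 libraries that stand apart in the trend. The triangles sit between 5.26 and 5.86 on the vertical axis, above nearly all other libraries, at both low and high mtDNA-encoded scores.

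Transcripts of the mitochondrial ribosome were present at moderate levels, higher for the middle large subunit gene than for the middle small subunit gene. In TPM, which is scaled to transcript length, the median over libraries was 34.2 for the middle gene of the 78, with quartiles of 22.8 and 50.2. The corresponding value over all tested genes was 4.45. Large subunit genes had a middle value of 37.3 TPM and ran from 8.39 for Mrps30 to 363 for Mrpl42. Small subunit genes had a middle value of 26.5 TPM and ran from 7.47 for Mrps10 to 166.7 for Mrps21. Mrpl12, whose product forms the stalk that recruits translation factors, had 93.7 TPM, and Mrpl58, a peptidyl-tRNA hydrolase built into the large subunit, had 46.3 TPM. Among small subunit genes, Mrps7 had 25.99, Mrps16 24.6, Mrps2 14.01 and Mrps22 12.3 TPM.

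The subunits rose and fell together across libraries. The mean log2 CPM of large subunit genes and that of small subunit genes had a correlation of 0.987 over all libraries, and of 0.959 without the 14 libraries that stand apart. The points share library, depth and length trend. The difference between the subunit means (large minus small) stayed between 0.25 and 0.43 log2 with an SD of 0.0376, whereas each mean had an SD of 0.23 (large) or 0.221 (small). This difference was 0.3137 ± 0.0366 (SD, n = 98) in males and 0.3262 ± 0.0379 (SD, n = 89) in females. Across strains, the male and female values of the difference had a correlation of 0.381, and of 0.452 in the 69 strains without a library that stands apart. For the member mean itself the corresponding values were 0.181 and 0.168. Thus the ratio of the subunits varied little, and over the 78 strains the overall level of the genes in a male said little about its level in a female of the same strain. Among pairs of the 78 genes the median correlation was 0.649 across libraries, 0.411 without the 14 libraries and 0.221 once the trend was removed.

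Differences between strains were tested gene by gene with edgeR's quasi-likelihood F test of all strain terms, with sex in the model. A gene is called changed where its Benjamini-Hochberg adjusted p over all 15942 genes is under 0.05. Over the 78 strains 77 of the 78 genes differed, against a background of 72.0% of all tested genes. The exception was Mrpl43 (adjusted p = 0.0761). Without the 14 libraries that stand apart, 67 were called, against 78.8% of all genes, and with the trend in the model 73 were called, against 81.6%. Large and small subunit genes were alike in this count, 50 of 51 and 26 of 26, and the median SD over strain means was 0.20 and 0.209 log2.

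Within the BXD strains 42 of the 78 genes were called, against 29.9% of all genes, but 10 without the libraries that stand apart, against 30.3%. In the AXB and BXA strains, whose fit held none of those libraries, 54 were called, against 33.9%, and 31 with the trend in the model, against 25.5%. In the other inbred strains 42 were called, against 48.6%, and 38 without those libraries, against 59.2%. By subunit, 30 large and 11 small subunit genes were called in BXD, 38 and 15 in AXB and BXA, and 28 and 13 in the other inbred strains. All 3 groups of strains shared 21 called genes, against 14.4% of all genes, and 9 were called in none of them, against 36.3%. Without the libraries that stand apart these counts were 6, against 14.8%, and 10, against 29.1%. Calls within the groups also depended on scaling. With library totals in place of TMM, 26 genes were called in BXD, against 30.6% of all genes. In AXB and BXA 20 were then called, against 45.3%, and in the other inbred strains 65, against 55.3%.

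Few of these genes had strain levels that repeated strongly between the sexes. The SD over strain means was 0.203 log2 for the middle gene (0.239 over all tested genes), close to the within-strain SD of 0.216. The correlation of male and female values over 78 strains was 0.269 for the middle gene, against 0.298 over all genes. It reached 0.7 in 4 genes (Mrpl15, Mrpl3, Mrps27 and Mrpl16), against 9.21% of all genes, and 0.5 in 13, against 22.5%. With p-values from 100000 permutations of the pairing and adjusted over all genes, 43 of the 78 had an adjusted p under 0.05, against 59.4% of all genes, and 54 did by rank correlation, against 66.7%. Removing the length trend raised the middle correlation to 0.465, against 0.37 over all genes, and lowered the middle SD to 0.126. As measured, the steadiest genes over strains were Mrps31 (SD 0.108 log2), Mrpl50 (0.117) and Mrpl44 (0.122), the last of which encodes a protein related to RNase III. Agreement of the sexes was higher for many genes within the AXB and BXA strains alone. Mrpl12, for example, had a correlation of 0.818 there, 0.123 in BXD and -0.126 in the other inbred strains. Some genes had lower values there than over 78 strains, such as Mrpl35 (0.406 against 0.66).

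**Figure D2:**
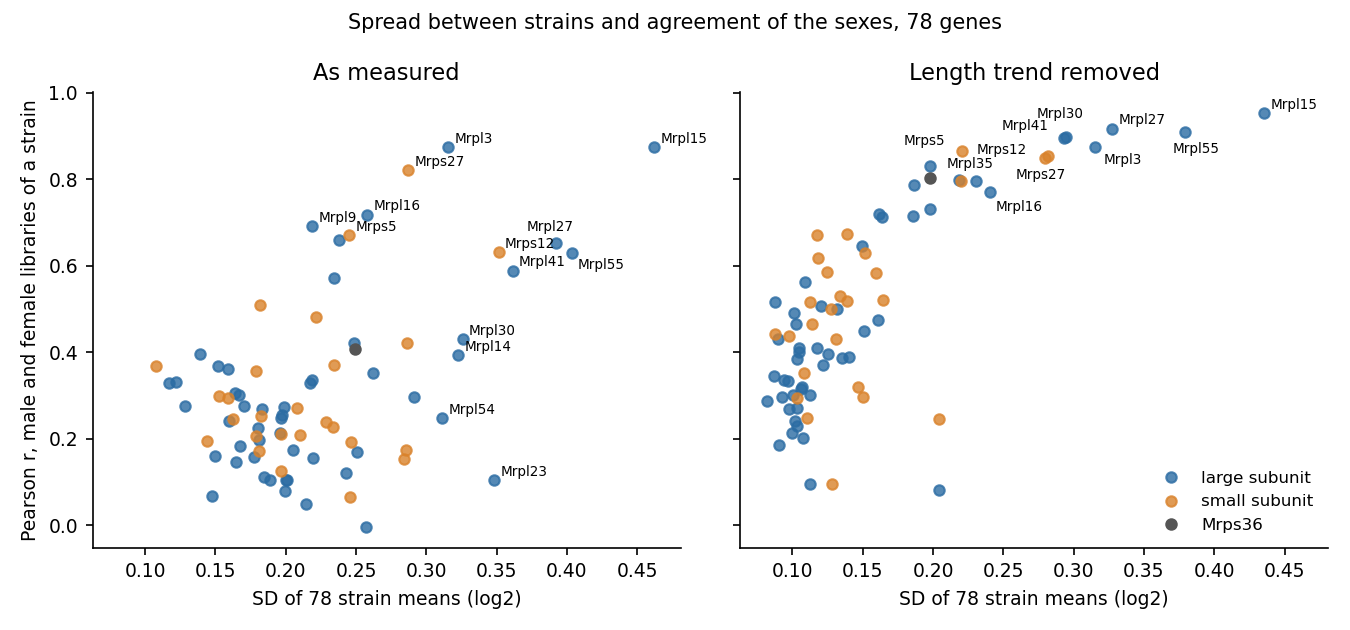
SD of 78 strain means (log2 CPM, horizontal) against the Pearson correlation of male and female libraries of a strain (vertical) for each of the 78 genes, as measured (left) and after removal of the length trend (right); blue, large subunit, orange, small subunit, grey, Mrps36. Mrpl15 lies at the far right of both panels (SD 0.462, r = 0.875 as measured), and Mrpl23 has a wide spread as measured (SD 0.348, 0.204 after removal) with little agreement of the sexes.

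Mrpl15, a large subunit protein with a bacterial counterpart (uL15), varied most between strains. The gene lies at chr1:4773206-4785739 on the minus strand. Male libraries had 29.1, 40.1 and 119 CPM (lowest, median, highest) and female libraries 28.2, 37.7 and 107 CPM. Strain means fell into a low and a high group. In the AXB and BXA strains 5 lay at 36.1 to 42.0 CPM and 8 at 65.1 to 83.8 CPM, and both sexes lay on the same side of the parents' midpoint in each of the 13 strains. The high group included AXB19/PgnJ, AXB19a/PgnJ and AXB19b/PgnJ, and how closely these are related was not examined. In the other inbred strains 9 lay at 32 to 45.5 and 15 at 59.5 to 86.5 CPM. The parents matched these levels: C57BL/6J had 35.2, 40.4 and 37.9 CPM, DBA/2J had 32.7 in the male and 32.1 in the female, A/J had 54.6 and 77.3, and BALB/cJ had 60.2 and 61.3. After removal of the length trend 52 of 78 strains lay at 31.7 to 44.2 and 26 at 59.2 to 81.4 CPM, with none between. The sexes had a correlation of 0.875 (Spearman 0.777) over 78 strains (p = 1e-05, the smallest that the permutations can give, adjusted p = 4.44e-05), and 0.875 without the 2 strains farthest from the median. Strain differences had an adjusted p of 3.59e-27 over 78 strains and of 0.11 within BXD, whose parents both belong to the low group.

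Mrpl55, a large subunit protein found only in mitochondria, separated C57BL/6J from the other parents of the crosses. It lies at chr11:59202486-59206134 on the plus strand. The C57BL/6J libraries had 36.3, 38.2 and 35.6 CPM and DBA/2J had 21.6 (male) and 18.2 CPM (female). No library of DBA/2J overlapped those of C57BL/6J, a log2 difference of -0.88 (SE 0.11, adjusted p = 0.0011). Among BXD strains 24 lay at 19.4 to 25.7 CPM and 10 at 35.6 to 42.9 CPM once the trend was removed. Around the midpoint of the parents both sexes then lay on the same side in every one of the 34 strains. As measured, both sexes lay above it in 11 strains and below it in 17, and the sexes were split in 6. In the other inbred strains the high values after trend removal belonged to C57BL/6J, C58/J and I/LnJ.

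Mrpl27 encodes a large subunit protein near the site of peptide bond formation, at chr11:94653767-94660089 on the plus strand. In 12 of the 78 strains its mean was 8.19 to 10.8 CPM and in 66 it was 14.6 to 31.8 CPM, with no strain between. The low strains were 6 AXB and BXA strains, both BXH strains with both sexes, A/J, C3H/HeJ, CBA/J and CE/J. Against C57BL/6J (17.4, 17.1 and 15.9 CPM), A/J (9.96 and 10.7 CPM) was lower by a log2 difference of -0.71 (SE 0.11, adjusted p = 0.0051) and C3H/HeJ (9.03 and 10.8 CPM) by -0.77 (SE 0.11, adjusted p = 0.0028). Of the transcript 31-mers of Mrpl27, 54% also occur in other genes, 38.8% in the pseudogene Gm6304, so reads of these may have been divided between them.

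Mrpl3, a core large subunit protein (uL3), differed between strains with little part of the length trend, with which its correlation was 0.0073. The gene lies at chr9:105053239-105079888 on the plus strand. Levels were 54.9, 58.7 and 45.8 CPM in C57BL/6J, 34.9 and 37.5 in DBA/2J, 32.6 and 35.7 in A/J, 34.5 and 38.8 in BALB/cJ and 33.6 and 35.03 in C3H/HeJ. Every library of these 4 parents lay below every C57BL/6J library, with log2 differences of -0.56, -0.64, -0.54 and -0.63 (SE 0.12 each). In the AXB and BXA strains 8 lay at 33.9 to 37.3 and 5 at 48.6 to 54 CPM. The highest inbred strains were CBA/J (68.2 and 70.2 CPM) and SM/J (69.9 and 58.2 CPM). Male and female values had a correlation of 0.874 over 78 strains (Spearman 0.826, p = 1e-05, the smallest the permutations can give), of 0.860 without the 2 farthest strains, and of 0.853 within BXD.

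Mrps27, a small subunit protein of the pentatricopeptide repeat family, lies at chr13:99344786-99415562 on the plus strand. In the AXB and BXA strains 7 had 18.9 to 23 CPM and 6 had 32.2 to 43.4 CPM. The sexes had a correlation of 0.822 over 78 strains (Spearman 0.767, p = 1e-05, 0.807 without the 2 farthest strains) and of 0.976 over the 13 AXB and BXA strains. Mrps12, a small subunit protein at the decoding centre (uS12), had 7 inbred strains at 13 to 15.4 CPM and 17 at 19.9 to 28.7 CPM. The Mrps12 strain means had an SD of 0.351 log2 (adjusted p = 2.92e-11), but within BXD the adjusted p was 0.0636. Mrpl41, a mitochondria-specific large subunit protein, had an SD of 0.361 with its lowest level in FVB/NJ (14.3 CPM).

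**Figure D3:**
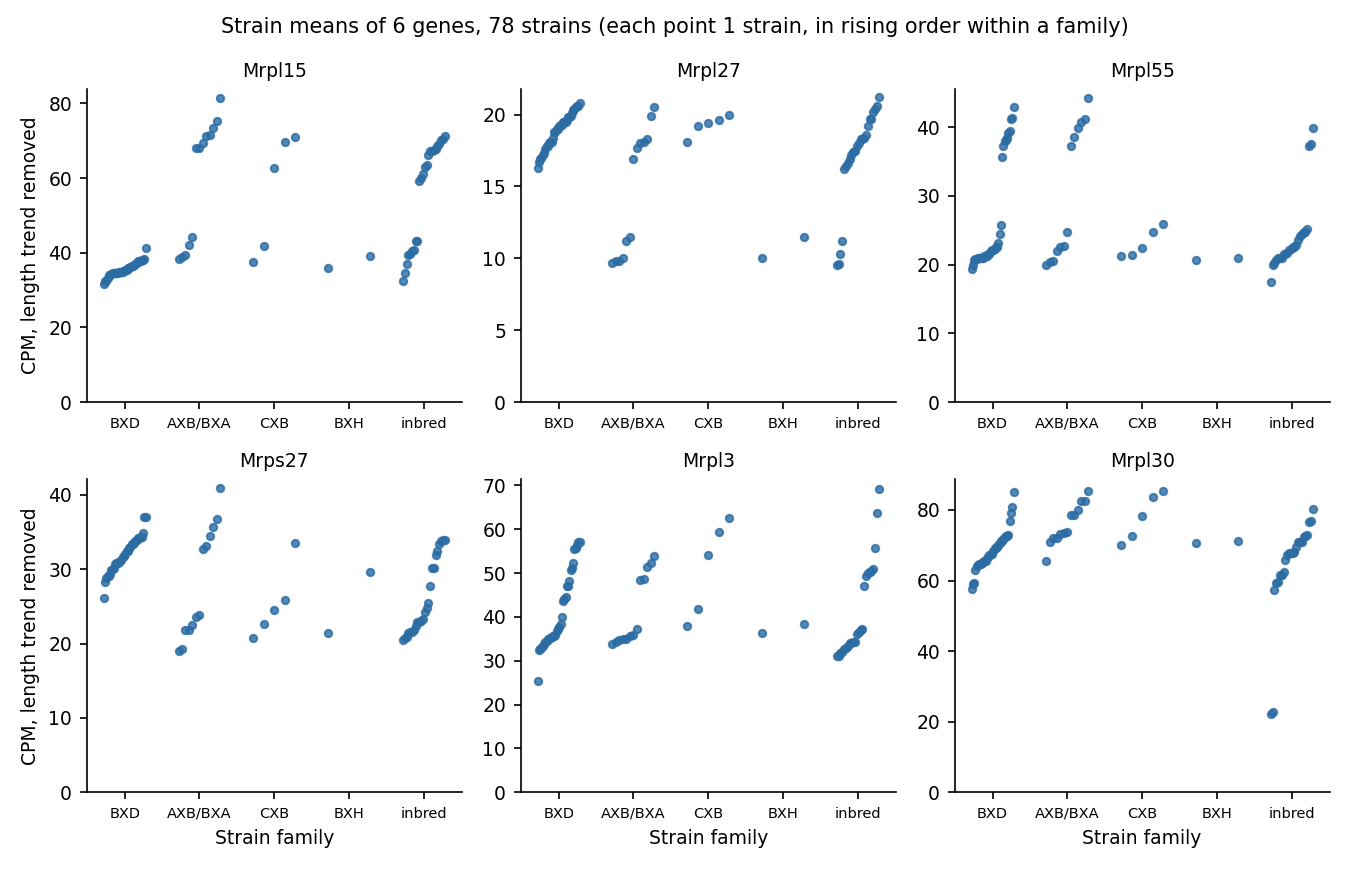
Strain means of 6 genes in CPM after removal of the length trend (vertical, from 0) for 78 strains, in rising order within each family (horizontal); each point is 1 strain with both sexes. Mrpl15 has no strain between 44.2 and 59.2 CPM, Mrpl27 has 12 strains at 9.55 to 11.5 CPM, Mrpl55 splits the BXD strains into 24 and 10, and 2 inbred strains lie far below the others in Mrpl30.

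Other genes had a strain or a few strains apart from the panel. Mrpl54 had 11.7 CPM in the male and 11.3 CPM in the female of NON/ShiLtJ, where the panel's medians were 27.5 and 25.8 CPM. Neither NON/ShiLtJ library stands apart in the length trend, and the sexes lay 1.23 and 1.19 log2 below their medians. Mrpl30, a large subunit protein (uL30) at chr1:37890477-37898535, was low in MA/MyJ (39.1 and 35.7 CPM in males, 18.7 CPM in the female) and in the male of RIIIS/J (18.6 CPM). The RIIIS/J female had 48.5 CPM. The libraries with the higher values, both MA/MyJ males and the RIIIS/J female, stand apart in the trend. With the trend removed, these strains had 22.2 and 22.8 CPM and the other 76 had 57.3 to 85.5 CPM. Mrpl35 was low in both sexes of BXD1/TyJ, BXD49/RwwJ, BXD50/RwwJ, BXD56/RwwJ and C3H/HeJ, Mrpl9 in KK/HlJ, NON/ShiLtJ, NZW/LacJ and BTBR T<+> tf/J, and Mrpl28 in KK/HlJ and SM/J. Mrps26, a mitochondria-specific small subunit protein, was high in BALB/cJ (34.6 and 35.7 CPM), PL/J, CXB11/HiAJ and CXB12/HiAJ.

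Strain-specific levels were counted by a rule: both sexes of a strain at least 0.5 log2 from the median of their sex, on the same side. At least 1 strain met it in 57 of the 78 genes, against 59.8% of all tested genes. Leaving out strains with a library that stands apart lowered this to 21 genes, against 48.4% of all tested genes. BXD19/TyJ, both of whose libraries stand apart, met the rule in 51 genes, high in each of them. Mrpl15 met it in 26 strains, Mrpl55 in 17, Mrpl27 in 12 (low in 11) and Mrps12 in 10 (low in 9). Mrpl23 had the sixth largest SD over strains (0.348 log2) but a correlation of 0.104 between the sexes, an SD of 0.204 once the trend was removed, and 53% of its 31-mers are shared with Mrpl23-ps1.

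Mrps5 encodes a core small subunit protein (uS5), whose worm counterpart is known from work on lifespan. The gene (ENSMUSG00000027374) lies at chr2:127587222-127606829 on the plus strand. The C57BL/6J libraries had 31.8 and 33.8 CPM in males and 29.1 CPM in the female, and DBA/2J had 21.5 CPM in the male and 20 CPM in the female. DBA/2J was lower in both libraries, with a log2 difference of -0.60 (SE 0.10, adjusted p = 0.0059). Leaving out either DBA/2J library gave an adjusted p of 0.0549 or 0.0616. A/J (21.7 and 20.95 CPM, log2 difference -0.56, adjusted p = 0.0106) and BALB/cJ (18.5 and 21.7 CPM, -0.64, adjusted p = 0.0048) were also lower, and C3H/HeJ (25.5 and 24.9 CPM, -0.32, adjusted p = 0.0928) was not called. Without the male or the female of A/J the adjusted p was 0.0586 or 0.0952, and without the BALB/cJ male it was 0.0976.

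The 34 BXD strains ran from about the DBA/2J level of Mrps5 to above that of C57BL/6J. Strain means ran from 21.5 CPM in BXD79/RwwJ to 35.9 CPM in BXD6/TyJ, whose female library stands apart, with a median of 28.9 CPM. Both sexes lay above the midpoint of the parents (25.6 CPM) in 19 strains and below it in 11, and the sexes were split in 4. There was no clear gap: the widest was 0.0809 log2, between 24.4 and 25.9 CPM. Strain differences within BXD had an adjusted p of 0.0011, and of 1.44e-06 without the libraries that stand apart. Male and female values had a correlation of 0.556 (Spearman 0.652) over the BXD strains, of 0.699 without the 2 farthest strains, and of 0.671 over all 78 strains (Spearman 0.708, p = 1e-05, the smallest the permutations can give, 0.675 without the 2 farthest). The AXB and BXA strains separated more sharply, 4 at 20.6 to 21.6 and 9 at 28.2 to 37.5 CPM, with no strain split between the sexes (adjusted p = 1.41e-06, r = 0.960). In the other inbred strains the lowest mean was 20.1 CPM in BALB/cJ and the highest 42.3 CPM in RIIIS/J, whose female library (54.5 CPM) stands apart. Of the 31-mers of Mrps5, 15.2% occur in another gene.

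**Figure D4:**
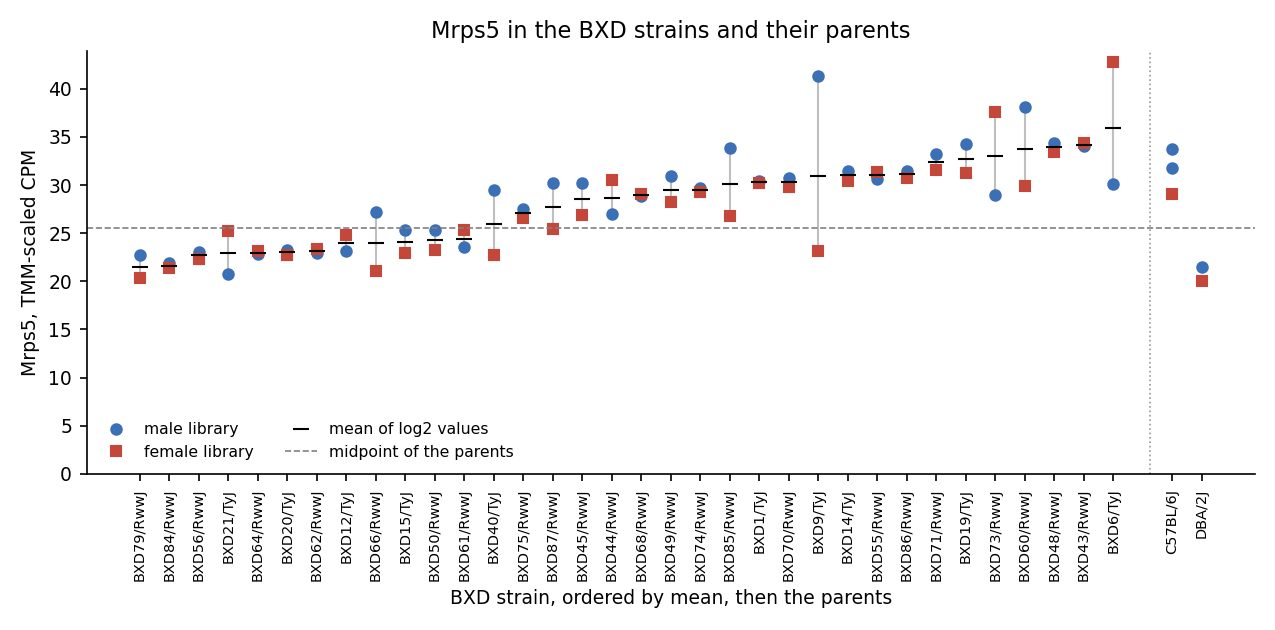
Mrps5 level (TMM-scaled CPM, vertical, from 0) in the male (circle) and female (square) library of 34 BXD strains ordered by their mean, followed by the libraries of C57BL/6J and DBA/2J; black ticks are the means on the log2 scale and the dashed line is the midpoint of the parents, 25.6 CPM. The strain means rise without a clear gap from 21.5 to 35.9 CPM, and the sexes differ most in BXD9/TyJ, where the male library stands apart.

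Compared with C57BL/6J, the other parents differed in a handful of these genes each. These comparisons share the 3 C57BL/6J libraries, and each other parent has 1 male and 1 female. C57BL/6J is also the strain of the reference, and the part of bases that differ from it in lower estimates of the other parents was not tested. In DBA/2J 2 genes were higher and 5 lower, against 5.79% and 4.88% of all genes. Lower were Mrpl55, Mrps5, Mrpl35 (16.9 and 18.1 CPM against 27.8, 26.2 and 24.4), Mrpl41 and Mrpl3, and higher were Mrpl20 (log2 difference 0.48) and Mrps34 (0.43). In A/J 3 were higher and 7 lower, against 4.72% and 3.45%. Mrpl15 (0.77), Mrpl20 (0.48) and Mrps34 (0.46) were higher, and Mrpl27, Mrpl16 (-0.67), Mrpl55 (-0.65), Mrpl3, Mrps5, Mrpl41 (-0.47) and Mrpl48 (-0.38) were lower. In BALB/cJ 2 were higher and 4 lower, against 5.11% and 3.8%: Mrps26 (0.79) and Mrpl15 (0.66) higher, and Mrpl55 (-0.81), Mrps5, Mrpl3 and Mrpl48 (-0.44) lower. In C3H/HeJ 2 were higher and 4 lower, against 5.43% and 3.88%: Mrpl14 (0.76; 51.8 and 61.6 CPM against 34.3, 33.98 and 31.03) and Mrpl20 (0.65) higher, and Mrpl27, Mrpl55 (-0.68), Mrpl3 and Mrpl35 (-0.61) lower. These calls rest on few libraries: leaving out the DBA/2J male or female left 2 or 1 of the 7 calls in that strain, while the share of all genes called fell from 10.7% to 3.68% or 4.93%. Leaving out the A/J male or female left 4 or 3 of 10 (8.17% to 6.36% or 2.97% of all genes), leaving out the BALB/cJ male left 2 of 6 (8.9% to 2.84%) and leaving out the C3H/HeJ male left 3 of 6 (9.31% to 4.69%). Leaving out a C57BL/6J male lowered the count to 4 in DBA/2J (6.65% of all genes) or 6 in A/J (6.1%).

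The genes whose strain means were most like those of Mrps5 over the 34 BXD strains lay on the same chromosome. They were Zc3h8 (r = 0.840, 1.32 Mb away), Haus2 (0.838, 6.97 Mb), Eif3j1 (0.835, 5.53 Mb), Ciao1 (0.834, 0.339 Mb) and Mfap1b (0.824, 6.11 Mb). With the trend removed the closest 5 were Ciao1 (0.877), Haus2 (0.833), Mal (0.830, 0.0264 Mb), Zc3h8 (0.819) and Mertk (0.817, 1.09 Mb), and Eif3j1 and Mfap1b were no longer among them. Of the 20 genes with the largest correlation of either sign as measured, 8 lay within 5 Mb of Mrps5. For Mrpl55 the closest patterns were Hist3h2a (0.840, 0.246 Mb) and Mrpl22 (0.817, 1.02 Mb), itself among the 78 genes, at 0.793 and 0.794 with the trend removed, and 11 of 20 lay within 5 Mb as measured. For Mrpl15 and Mrpl27, which were not called between the BXD parents, none of 20 did. Closest to Mrpl15 were Slc25a4 (0.919) and Mrpl21 (0.916), but with the trend removed neither was among its closest 5, which were led by Pkmyt1 (0.636) on another chromosome and held Rrs1 (0.583) at 4.76 Mb. Closest to Mrpl27 were Cox17 (0.964) and Ndufa5 (0.961), which remained first with the trend removed at lower values (0.732 and 0.706). Mrpl35 was closest to Ptcd3, whose product belongs to the small subunit of the mitochondrial ribosome, at 0.0537 Mb (0.883, and 0.954 with the trend removed). Strains of a cross share long stretches of chromosome, and libraries share the length trend, so these values describe likeness only.

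On TMM-scaled counts the median difference of these genes lay slightly toward males, and its sign turned with library totals. In 22 of the 78 genes the level was higher in males, against 13.2% of all genes, and none of the 78 was higher in females, against 11.6%. DESeq2 likewise called none higher in females, and 1 had an unadjusted p under 0.05 by edgeR. The median difference was 0.077 log2, with all tested genes at -0.0069, and 68 of the 78 genes had a positive difference. Of the called genes 15 were in the large and 7 in the small subunit.

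Mrps34, a mitochondria-specific small subunit protein, differed most between the sexes. Its levels were 24.9, 37.7 and 84.1 CPM in males (lowest, median, highest) and 19.9, 32.01 and 77.7 CPM in females. The log2 difference was 0.27 (SE 0.05, adjusted p = 1.13e-05), and the male was higher in 60 of 78 strains, although the ranges overlapped almost completely. Of the Mrps34 31-mers 55.6% occur in Mapk8ip3. Mrpl43 (22.9, 29.3 and 52.6 CPM in males, 20.99, 26.2 and 44.3 in females) differed by 0.21 (SE 0.03, adjusted p = 3.32e-08) and was higher in males of 64 strains. Of the Mrpl43 31-mers 31.7% occur in other genes, 24% in Twnk. For Mrpl12, which besides its place in the stalk is known to bind the mitochondrial RNA polymerase, males had 83.9, 107.9 and 243 CPM and females 75.3, 93.5 and 199.6 CPM, a difference of 0.19 (SE 0.04, adjusted p = 4.8e-04). Mrpl28 (0.19, adjusted p = 7.5e-04) and Mrpl55 (0.19, adjusted p = 0.042) followed, although Mrpl55 was not called with the length trend in the model (0.137, adjusted p = 0.0751). Of the remaining landmark genes, Mrps2 (0.11, adjusted p = 0.0014), Mrpl44 (0.07, adjusted p = 0.0084), Mrps18a (0.13, adjusted p = 0.0092), Mrps22 (0.08, adjusted p = 0.029) and Mrps7 (0.11, adjusted p = 0.040) were higher in males. Mrps22 was not called without the libraries that stand apart (0.054, adjusted p = 0.0689). Mrps16 (0.09, adjusted p = 0.058), Mrps30 (0.03) and Mrpl58 (0.01) were not called, but Mrps16 was with the strain as a block (0.091, adjusted p = 0.0333). At the other end stood Mrps36 (-0.07, adjusted p = 0.267), the member that is no ribosomal protein, with 39.9% of its 31-mers also in other genes.

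The sex difference was small enough to depend on scaling. With library totals in place of TMM, 5 genes had their higher level in males, against 2.84% of all genes, and 9 in females, against 33.9%, and the median difference of the 78 genes was -0.0135 log2, where the median of all genes shifted by -0.081. In limma on log2(TPM + 1), 2 had it in males, against 1.47%, and 18 in females, against 42.9%. With the length trend in the model, 35 had it in males, against 16.3%, and 6 in females, against 15.4%. Without the libraries that stand apart, 41 had it in males, against 15.6%, and 1 in females, against 14.5%. Mrps36 was among those then called higher in females with the trend in the model (-0.107, adjusted p = 0.0052). Adding the mtDNA-encoded score left 9 genes higher in males, against 11.6%. Of the marker lists, 1 of 5 blood and 2 of 3 tested skeletal muscle markers were higher in males, and 2 of 5 adipose, 2 of 3 fibroblast, 1 of 4 thymus and lymphocyte and 1 of 7 heart muscle markers were higher in females, and their part in the result was not tested. Among the mtDNA-encoded genes themselves, 5 of 13 were higher in males (mt-Co1, mt-Cytb, mt-Co3, mt-Atp6 and mt-Nd4), mt-Co1 by 0.23 log2 (adjusted p = 0.00266).

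To ask whether the translation machinery varied with the messages it reads, each gene was fitted on an mtDNA-encoded score, the mean log2 CPM of the 13 mtDNA-encoded protein genes, with sex in the model. The score ran from 12.8 to 16.01 with an SD of 0.418. On TMM-scaled counts 68 of the 78 genes rose with it, against 23.5% of all genes, and none of the 78 fell, against 28.1%, whereas with library totals all 78 fell, as did 90.6% of all genes. None had a falling slope at an unadjusted p under 0.05 either. The called genes were 46 of the large and 21 of the small subunit, and Mrps36. The median slope was 0.184 log2 per log2 of score, against -0.015 for all tested genes. A slope measures only the part of a gene's change that goes with the score.

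Mrpl42 had the steepest slope, 0.36 (SE 0.05, adjusted p = 9.01e-10). Mrpl42 levels were 129, 170 and 505 CPM in males and 126.4, 171.2 and 404 CPM in females. Mrpl30 (0.35, SE 0.06), Mrpl32 (0.31, SE 0.03, adjusted p = 3.4e-17), Mrps36 (0.30) and Mrpl41 (0.295) followed. With the length trend in the model the slopes of Mrpl42 (0.220), Mrpl30 (0.193), Mrpl32 (0.214), Mrps36 (0.2003) and Mrpl41 (0.178) were lower and still called, Mrps27 (0.233) and Mrpl3 (0.220) had the highest, and the median over the 78 genes was 0.0859. The Mrpl32 protein is known as a substrate of the m-AAA protease, whose cleavage precedes assembly. Not called were Mrpl14, Mrpl15, Mrpl20, Mrpl23, Mrpl52, Mrps6, Mrps12, Mrps18b, Mrps25 and Mrps35. With the strain as a block, which pairs the male and female libraries, all of these but Mrpl23, Mrpl52 and Mrps6 were called rising, while Mrpl57, Mrps24 and Mrps34 lost their call. Leaving out the libraries that stand apart removed the call of Mrpl3, Mrpl27, Mrpl39, Mrps24 and Mrps34, while Mrpl23, Mrpl52 and Mrps35 gained one. Over all libraries Mrps5 rose by 0.149 (SE 0.044, adjusted p = 0.0029), but with the length trend in the model by 0.082 (adjusted p = 0.0775). Among the landmark genes the slopes ran from 0.111 for Mrps16 to 0.255 for Mrps22, apart from Mrps36, and with the length trend in the model Mrps16 (-0.0075, adjusted p = 0.766), Mrps18a (0.026), Mrpl58 (0.0395) and Mrps30 (0.044) were not called. In that model 12 of the 78 slopes and 9 of the sex differences had the opposite sign, 4 of the slopes and none of the sex differences being called in either fit.

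Co-variation with the mtDNA-encoded transcripts differed in size between groups of strains and between scalings. The correlation of the member mean with the score was 0.408 over all libraries, 0.492 without the libraries that stand apart, 0.448 in BXD, 0.711 in AXB and BXA and 0.206 in the other inbred strains. In the other inbred strains alone 7 of the 78 genes rose with the score, against 5.87% of all genes, and in BXD alone 67 did, against 16.3%. The difference between these groups was not tested. Markers of cell types moved with the score as well: 6 of 7 heart muscle markers rose (summed level 35900 to 76500 CPM over libraries), and 4 of 5 blood (365 to 26400 CPM) and 4 of 5 adipose markers (204 to 1050 CPM) fell. Of the other lists, 3 of 3 fibroblast, 2 of 2 endothelium, 1 of 1 smooth muscle and 3 of 4 thymus and lymphocyte markers fell, and 1 of 3 skeletal muscle markers rose. Their part in the result was not tested. With the blood, atrial and adipose marker means in the model, 67 of the 78 genes rose, against 22.5% of all genes, and none fell. With the trend in the model 46 genes rose, against 25.8%, and 2 fell, against 26.9%. With library totals all 78 fell, against 90.6% of all genes, and none rose, where the median of all genes shifted by -0.551 and the members' median slope was -0.447. In limma on log2(TPM + 1), 72 fell, against 56.4%, and none rose. The mtDNA-encoded genes took up to 61.3% of the counts, and dividing by the library total lowers every other value as they rise.

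**Figure D5:**
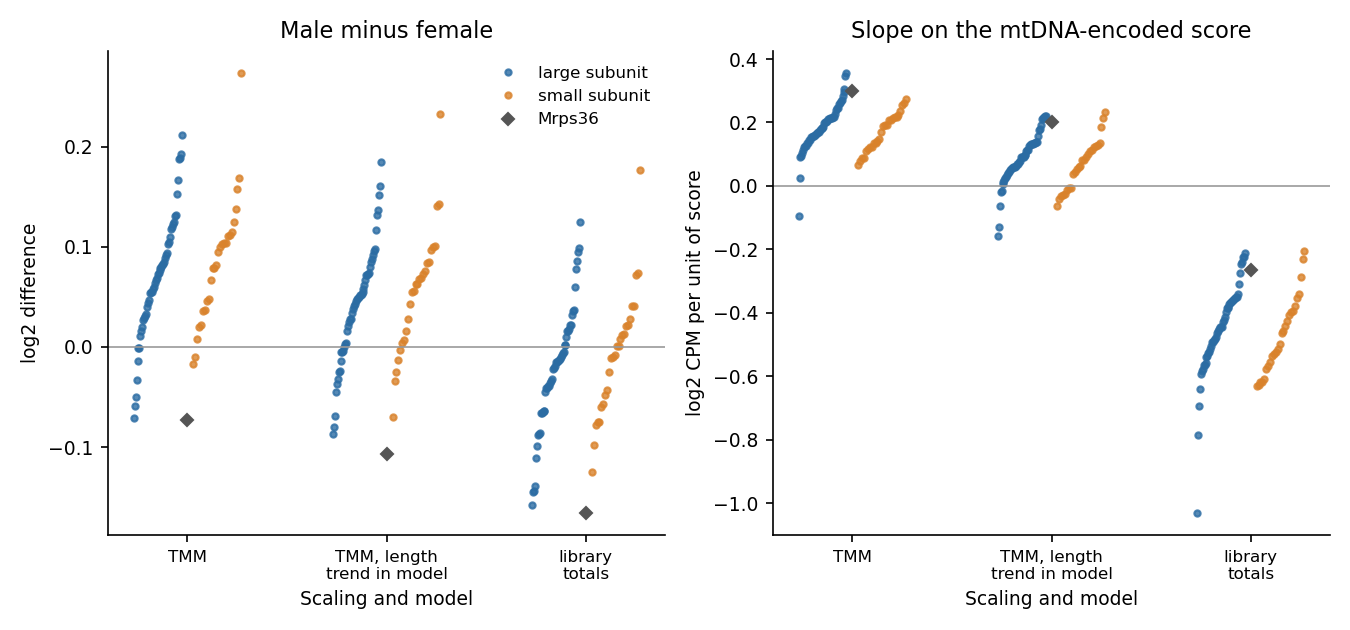
Male minus female log2 difference (left) and slope on the mtDNA-encoded score in log2 CPM per log2 of score (right) for each of the 78 genes under TMM scaling, TMM with the length trend in the model, and library totals; each point is 1 gene, ordered within its subunit. Under TMM 68 genes lie above 0 on the left and 77 on the right, and under library totals all slopes are below 0.

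Partners of the mitochondrial ribosome outside the naming rule gave mixed counts. Over all tested genes 72.0% differed between strains, 13.2% were higher in males and 23.5% rose with the score. The 5 listed subunits with other names (Dap3, Ptcd3, Chchd1, Aurkaip1 and Gadd45gip1) all differed between strains, 1 of them was higher in males and 3 rose with the mtDNA-encoded score. Ptcd3 was among the genes whose strain levels repeated best between the sexes (r = 0.888). Of 10 mitochondrial translation factors, 9 differed between strains, 6 were higher in males and 7 rose with the score. Of 18 assembly factors, 17, 6 and 12 did so, and Dhx30, a helicase of mitochondrial RNA granules, fell with the score (slope -0.149). Of 9 genes for mtDNA transcription and RNA stability, 6, 3 and 6 did so, among them Tfam (slope 0.217) and Tfb2m (0.251). Of 17 mitochondrial tRNA synthetases, 14, 6 and 10 did so, with Lars2 far ahead (slope 0.842, 0.34 log2 higher in males). That slope was near the median of the 13 mtDNA-encoded genes themselves (0.946), and whether Lars2 shares sequence with other transcripts was not examined. None of the listed partners was called higher in females. Of the 84 cytosolic ribosomal protein genes, none was called higher in males, 18 were higher in females, against 11.6% of all genes, and 33 rose with the score.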

How the data were processed

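Messenger RNA libraries of whole heart had been sequenced as paired reads, 1 library per sample. The authors quantified them with kallisto 0.46 against the Ensembl transcriptome of GRCm38.p6 and deposited estimated counts per gene, of which 34.2% were not whole numbers. The authors also deposited TPM, which is scaled to transcript length and to the library's sum. How transcripts were summed to genes is not given in the sources used here. kallisto divides reads among compatible transcripts, so genes that share sequence were estimated together, and shared 31-mers were counted over the annotated transcripts. All value columns matched a sample by the number in its title. Symbols and coordinates came from GENCODE M21 on GRCm38 (35856 genes with a symbol).

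Estimated counts were rounded. Genes were kept by filterByExpr with sex as the group, scaled by TMM and tested by edgeR 4.0.16 (R 4.3.3), quasi-likelihood F test, Benjamini-Hochberg adjusted p under 0.05 over all tested genes. Log2 CPM used a prior count of 2. Strain tests used strains with both sexes with sex in the model. Parental contrasts came from a single fit of the 11 libraries of C57BL/6J, DBA/2J, A/J, BALB/cJ and C3H/HeJ. Sex was tested with no covariates, and the mtDNA-encoded score with sex, over all libraries. Agreement of the sexes was tested by 100000 permutations, two-sided. The length trend was removed from a gene by regression of its log2 CPM on the library slopes, and libraries over 4 scaled median absolute deviations from the median slope (0.0299) were said to stand apart. The trend and these libraries were chosen after seeing the data. Alternatives were DESeq2 1.42.0, limma-trend (limma 3.58.1) on log2(TPM + 1) and log2(TPM + 0.1), library totals, other filters (none, or a mean of at least 1 CPM), added covariates, strain as a block, and leaving out single libraries. The tests were tested on simulated data. Scripts ran in Python 3.11.15 with scipy 1.17.1, pandas 2.3.3, matplotlib 3.10.9 and numpy 2.4.6.

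The pairing of a male with a female library comes from their shared inbred strain. For 3 strains a sex had 2 libraries (C57BL/6J males, CXB6/ByJ females, MA/MyJ males). Their counts differed beyond sampling noise (chi-square per gene 19.8, 126.0 and 13.3), and they were kept as separate libraries. This does not show whether they came from separate mice, which the labels do not say. The members and lists were chosen with earlier results of these data known. Named genes were Mrps5, a set of landmark genes, the 10 called genes with the largest and the 3 with the smallest SD over strains, up to 5 with the largest called change in each other comparison, genes meeting the strain-specific rule, and genes a small count refers to. Motifs were searched as exact letters on both strands.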

Additional observations from a re-analysis of the deposited data

Results flagged for a closer look

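Within the small BXH and CXB families, a library was set against the others of its sex by Dixon's test for 11 named genes, 33 pairs of gene and group in all, of which 6 passed the critical value. Chance flags about 1 in 20 such groups where genes are unselected and groups independent, which did not hold here. Besides Mrps5, the genes were those with the largest SD over strains, and several flags share a library. The number of flags therefore cannot be judged against that rate. Among the 5 BXH males, BXH6/TyJ had 64.9 CPM of Mrpl14 against a group median of 34.4 CPM (gap over range 0.81). Among the 6 CXB females, CXB4/ByJ was highest in Mrpl27 (32.4 against 18.9 CPM, 0.68), Mrpl41 (48.1 against 30.4 CPM, 0.644) and Mrpl54 (59.3 against 30.5 CPM, 0.657). Among the 6 CXB males, CXB7/ByJ was highest in Mrpl23 (25.4 against 7.04 CPM, 0.683) and Mrpl55 (94.8 against 24.3 CPM, 0.773). The CXB4/ByJ female and the CXB7/ByJ male are among the 14 libraries that stand apart in the length trend, and the BXH6/TyJ male is not.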

How the results depend on the processing

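Of the counts of these genes under alternative settings, 61 stayed within 1.5 times the count reported and 43 did not. Of 606 values of single genes, 516 kept their call, 80 lost it and 10 changed sign. Causes were not tested. Within BXD the called genes went from 42 to 16 in limma on log2(TPM + 1) or log2(TPM + 0.1) (against 27.7% of all genes in each), 26 with library totals (30.6%) and 10 without the libraries that stand apart (30.3%). Within AXB and BXA they went from 54 to 18 and 19 in limma with the larger and smaller pseudocount (45.4% and 45.9%), 20 with library totals (45.3%), 19 with the mtDNA-encoded score (22.5%) and 31 with the length trend in the model (25.5%). In the other inbred strains they went from 42 to 68 in limma with either pseudocount (52.5% and 52.1%) and 65 with library totals (55.3%). Over 78 strains they ranged from 67 to 77. Among the parents, DBA/2J went from 7 to 23 with library totals (against 27.3% of all genes) and 4 in the fit of all 78 strains (against 10%), and to between 1 and 6 leaving out a library. A/J went from 10 to 5 in the fit of all 78 strains (against 7.85%), and to between 3 and 7 leaving out a library, BALB/cJ from 6 to between 2 and 7 leaving out a library, and C3H/HeJ from 6 to 27 with library totals (against 18.3%), and to between 3 and 8 leaving out a library.

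Genes higher in males went from 22 to 5 with library totals, 2 in limma with either pseudocount, 9 with the mtDNA-encoded score, 35 with the length trend and 41 without the libraries that stand apart. Genes higher in females went from 0 to 9, 18 with a pseudocount of 1 and 17 with 0.1 (against 42.1% of all genes), 2 (against 9.76%), 6 and 1 in the same order. With the strain as a block that pairs male and female, 27 genes were higher in males, against 16.2% of all genes (21 shared with the 22, Mrpl32 lost), and 1, Mrpl39, in females, against 15.3%. With the block 72 rose with the score, against 20.6% (65 shared with the 68). The block turned the sign of 6 sex differences and 1 slope, none of them called with or without it. Genes rising with the mtDNA-encoded score went from 68 to 0 with library totals, 0 in limma and 7 in the other inbred strains alone (against 5.87% of all genes), and genes falling went from 0 to 78, to 72, and to 2 with the length trend. With library totals and in limma on log2(TPM + 1), in that order, the slopes reversed to -0.27 and -0.60 for Mrpl42, -0.25 and -0.54 for Mrpl30, -0.22 and -0.41 for Mrpl32, -0.26 and -0.50 for Mrps36 and -0.35 and -0.65 for Mrpl41. With 1 or 2 libraries per sex and strain, a strain's level rests on very few libraries, and depth, at 28988462 counts or more, limited these genes little: the lowest level of any of the 78 genes in a library was 3.57 CPM, in Mrpl23.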
